A study of Mus musculus with 14 samples.

Results

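The genes described here encode the proteins of the cytosolic ribosome. They are the 88 of 35735 rows of the series' expression table whose symbol has the form of a cytosolic ribosomal protein (Rpl, Rps or Rplp and a number, with at most a letter a, l, x or y and a digit after it). By role the 88 genes were 43 proteins of the large subunit, 30 of the small subunit, 3 proteins of the acidic stalk and 12 paralogues or retrocopies. RNA had been sequenced from microglia, the resident macrophages of the retina, sorted from mouse retinas as CD11b+, Ly6c-negative, Fcrls+ cells. The mice were 12 weeks old and had the genotype APOE E3/E3 (APOE3 below) or APOE E4/E4 (APOE4), named for alleles of human apolipoprotein E, a lipid carrier, and the eye of each retina had been injected with microbeads, a procedure used to raise the pressure in the eye as a model of glaucoma, or had been sham-injected. Sham groups had 4 libraries for APOE3 and 4 for APOE4, and microbead groups had 3 for APOE3 and 3 for APOE4, with 1 retina a library. No group had another APOE genotype. Between 100 and 600 cells were collected from each retina. The labels do not say that the retinas came from separate animals, so the p-values below measure the spread between these libraries.

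The cytosolic ribosome joins a large and a small subunit, each made of ribosomal RNA and a set of mostly single-copy proteins that are needed in equal amounts. The mRNAs of nearly all of these proteins begin with a C followed by a run of pyrimidines, the terminal oligopyrimidine (TOP) motif. LARP1 and the kinase complex mTORC1 act through that motif to set how much of the mRNA is translated and how long it is kept. The genes are short, strongly expressed and have many processed pseudogenes, so reads can fall on more than one locus. In a bulk sample, fewer cells of a type and less RNA per cell cannot be told apart.

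The libraries held 451480 to 727901 reads assigned to genes, of which 8 predicted genes at satellite repeats held 37.3 to 63.2%. The 88 ribosomal protein genes held 4796 to 17621 reads per library. Levels are given as CPM (counts per 1e+06 reads), that is reads divided by an effective library size that edgeR's trimmed mean of M values (TMM) sets so that most genes stay level. The summed level of 12 microglial markers was 14312 to 19520 CPM in APOE3 sham, 14239 to 17219 in APOE4 sham, 6985 to 11800 in APOE3 microbead and 14342 to 16750 in APOE4 microbead. The summed level of 14 markers of monocytes and blood-derived macrophages was 66.5 to 87.1 CPM in APOE3 sham, 54.5 to 68.9 in APOE4 sham, 286 to 1549 in APOE3 microbead and 56.9 to 205 in APOE4 microbead. Rod photoreceptor markers reached 2016 CPM in an APOE3 sham library and were 154 to 751 CPM in APOE3 microbead. The library APOE3 sham 2 stood apart in the ribosomal protein genes, which held 1.68% of its reads outside the satellite genes against 2.19 to 2.25% in the other APOE3 sham libraries. The count of genes called is therefore also given without it.

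The promoters show which of these mRNAs can begin with a pyrimidine run and which share an upstream motif. RefSeq promoters (GRCm38.p6, from 250 bases before to 50 after the start) matched 63 of the 88 genes. Searched on both strands, CCGGAAG, the core letters bound by ETS factors such as GABP, was in 25 of 63 (39.7%) against 9.9% of all 27025 genes with a promoter. AAGATGG, a YY1-type motif, was in 10 (15.9% against 7.3%), GGGGCGGGG in 5 (7.9% against 12.9%) and TATAAA in 8 (12.7% against 15.7%). On the gene's strand, a C followed by at least 4 pyrimidines began within 5 bases of the start in 30 of 63 (47.6% against 21.2%), and within 10 bases in 40 (63.5% against 34.4%). The windows below run from 60 bases before the start to 15 after it, 5′ to 3′ on the gene's strand, with CCGGAAG or its reverse complement CTTCCGG and the pyrimidine run in capitals. They were chosen after the values were seen, to set genes that rose after microbeads (Rpl41, Rpl19, Rpl38, Rps10, Rps27, Rplp2) beside genes that did not pass the test (Rpl12, Rpl15).
Rpl41, chr10:128549154-128549228, minus strand: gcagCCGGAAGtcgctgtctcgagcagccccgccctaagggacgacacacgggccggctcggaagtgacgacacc
Rpl19, chr11:98026650-98026724, plus strand: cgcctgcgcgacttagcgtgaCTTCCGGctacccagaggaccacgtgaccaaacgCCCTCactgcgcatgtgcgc
Rpl38, chr11:114668520-114668594, plus strand: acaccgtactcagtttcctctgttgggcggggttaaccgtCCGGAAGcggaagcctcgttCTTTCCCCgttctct
Rps10, chr17:27635230-27635304, minus strand: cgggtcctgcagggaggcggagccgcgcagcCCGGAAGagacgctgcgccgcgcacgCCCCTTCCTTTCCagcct
Rps27, chr3:90213634-90213708, minus strand: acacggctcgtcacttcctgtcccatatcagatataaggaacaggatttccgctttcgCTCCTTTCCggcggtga
Rplp2, chr7:141447591-141447665, plus strand: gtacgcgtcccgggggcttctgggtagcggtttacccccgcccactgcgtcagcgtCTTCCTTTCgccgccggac
Rpl12, chr2:32961652-32961726, plus strand: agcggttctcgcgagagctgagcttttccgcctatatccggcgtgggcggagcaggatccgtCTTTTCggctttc
Rpl15, chr14:18270972-18271046, minus strand: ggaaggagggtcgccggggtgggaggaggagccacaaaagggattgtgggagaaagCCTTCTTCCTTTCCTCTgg
The pyrimidine run is present in windows of genes of both kinds, with the longest run of these 8 windows in Rpl15. Rpl41 has the ETS-type motif but no run at its annotated start. Rpl12 and Rpl15 have near-identical pseudogenes, described below. With the reads of these added, their log2 fold changes in APOE3 were positive, at 0.40 ± 0.18 and 0.67 ± 0.23 (edgeR, adjusted p = 0.288 and 0.0952).

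Per length, the genes covered a wide range of levels in the authors' TPM (transcripts scaled for length and library). Among the genes with the highest mean TPM over the 14 libraries were the zinc-finger protein Rps29 at 339.5 and the stalk protein Rplp1 at 291. The lowest among the genes tested were Rps4l at 6.0, Rpl7l1 at 7.02 and Rpl5 at 9.08. The order of the genes by TPM was alike in all libraries, with Spearman coefficients of 0.86 to 0.95 over the 91 pairs of libraries; these points share the genes' lengths and sequences. The filter on low counts was passed by 80 of the 88 genes, which were tested: 43 of the large subunit, 30 of the small subunit, the 3 stalk proteins and 4 paralogues. The other 8 are all paralogues or retrocopies: Rpl10l, Rpl32l, Rpl39l, Rpl3l, Rpl6l, Rps12l1, Rps3a2 and Rps3a3. Rpl10l was listed at 0 in every library, and 6 of the others did not exceed 5.99 TPM in any library. Rps12l1, a processed pseudogene at chr7:56014016-56014414 on the plus strand (GRCm38), reached 119.8 TPM in APOE4 microbead 3 and was listed at 0 in the other 13 libraries, and 100% of its 31-base words occur in transcripts of other genes.

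In APOE3, ribosomal protein mRNA was higher relative to other genes (CPM with TMM) after microbeads than after sham injection. Of the 80 genes tested, 56 rose and 0 fell at an adjusted p under 0.05 (edgeR's quasi-likelihood test), where 5.2% of all 7609 genes were called and 3.54% were called higher. The genes that rose came from both subunits: 30 of 43 of the large subunit, 24 of 30 of the small subunit and 2 of the 3 stalk proteins. Of the 4 paralogues 0 were called, and their median SE was 0.5, against 0.22 over the 80 genes. The median log2 fold change of the 80 genes was 0.90, with quartiles of 0.72 and 1.03, against -0.02 over all genes tested, with quartiles of -0.33 and 0.33. Of the 80 log2 fold changes, 76 were positive and 4 were negative. All APOE3 microbead libraries lay above all APOE3 sham libraries for 65 genes (7.49% of all genes did so) and below them for 2 (5.59% of all genes). DESeq2 called 54 of the 80 higher, with 5.18% of all genes called.

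The summed level of the 88 genes was 11191, 8420, 11278 and 10553 CPM in the 4 APOE3 sham libraries, a mean of 10361 ± 1334 (SD, n = 4). It was 20637, 19607 and 16818 CPM in the 3 APOE3 microbead libraries, a mean of 19021 ± 1976 (SD, n = 3). It was 12041, 12421, 12409 and 11671 CPM in APOE4 sham (12135.5 ± 356) and 14688, 12304 and 12412 CPM in APOE4 microbead (13135 ± 1346.5). The APOE3 microbead libraries lay above all 11 others, and the lowest of them was still above APOE4 microbead 1, the highest of the rest. The APOE3 sham libraries were the lowest of all and did not overlap with APOE4 sham. As a share of reads outside the satellite genes, the 88 genes held 3.80, 3.86 and 3.34% in APOE3 microbead and 1.68 to 2.25% in APOE3 sham. The large and the small subunit moved together: the ratio of small-subunit to large-subunit CPM was 0.808 ± 0.036 in APOE3 sham (SD, n = 4) and 0.853 ± 0.00907 in APOE3 microbead (SD, n = 3), and the 2 sets of libraries overlapped, with 0.854 in APOE3 sham 1.

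**Figure D1:**
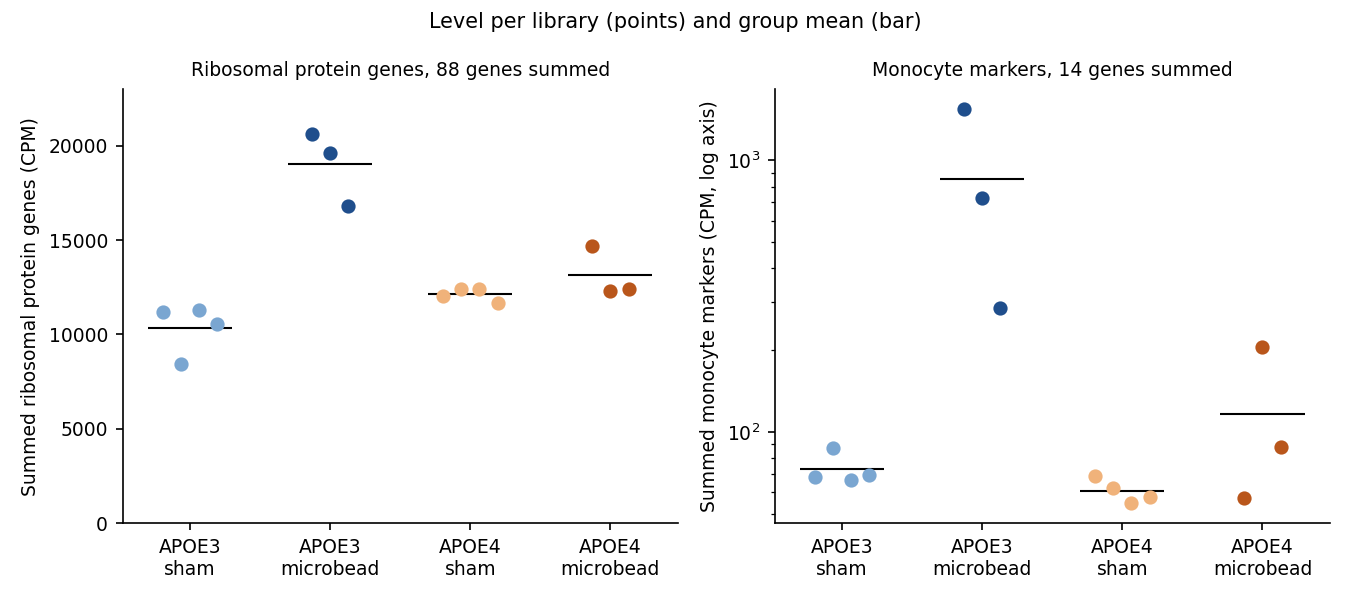
Summed level of the 88 ribosomal protein genes (left, CPM, axis from 0) and of 14 monocyte markers (right, CPM, log axis) in each library (points), with the group mean (bar). The 3 APOE3 microbead libraries lie at 16818 to 20637 CPM in the left panel, above all others, and at 286 to 1549 CPM in the right panel.

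Among large-subunit proteins, the smallest adjusted p belonged to Rpl41, a very short basic peptide. Rpl41 was at 199, 155, 249.9 and 209.9 CPM in APOE3 sham and at 554, 519 and 421 CPM in APOE3 microbead. The groups did not overlap, and Rpl41 rose by 1.29 ± 0.21 on the log2 scale (SE; adjusted p = 0.00021). Rpl23a, which lies at the exit of the peptide tunnel, was at 104, 108, 156 and 144 CPM in sham and 294, 299 and 253 CPM in microbead libraries. Every microbead library of Rpl23a was above every sham library, and the rise was 1.14 ± 0.20 on the log2 scale (SE; adjusted p = 0.00053). Rpl39, another short protein of the tunnel wall, rose from 103, 68.5, 116 and 82.8 CPM to 239.7, 206 and 183 CPM (log2 fold change 1.18 ± 0.22, adjusted p = 0.00105). Rpl6 was at 172 to 199 CPM in sham and 342 to 403 CPM in microbead libraries, a narrow spread on both sides (log2 fold change 1.03 ± 0.19, adjusted p = 0.000777). Rpl19, which takes part in a bridge between the subunits, was at 203, 136, 302 and 203 CPM in sham, where APOE3 sham 3 was the highest, and at 484, 459 and 450.4 CPM in microbead libraries (log2 fold change 1.14 ± 0.21, adjusted p = 0.000841). Rpl13 went from 235, 151, 211 and 165 CPM to 441, 414 and 332 CPM (log2 fold change 1.05 ± 0.20, adjusted p = 0.00123). Rpl13a rose by 0.84 ± 0.19 on the log2 scale (adjusted p = 0.00512), and Rpl7 by 0.95 ± 0.21 (adjusted p = 0.00411).

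All 30 small-subunit proteins had a positive log2 fold change, with a median of 0.92. Rps27, a zinc-finger protein, was at 142, 119, 138 and 149 CPM in APOE3 sham and 326, 260.2 and 279 CPM in APOE3 microbead. Sham libraries of Rps27 were close together, and the log2 fold change was 1.07 ± 0.19 (SE; adjusted p = 0.000841). Rpl41 shares 11.8% of its 31-base words with other genes and Rps27 shares 98.7%, so the rise was measured both in a gene with little and in a gene with much sequence in common with other loci. Rps19, the gene most often mutated in Diamond-Blackfan anaemia, was at 161, 114, 154 and 129 CPM in sham and 302, 275 and 227 CPM in microbead libraries (log2 fold change 0.94 ± 0.20, adjusted p = 0.00366). Rps29 rose by 0.95 ± 0.20 (adjusted p = 0.00372), Rps4x, encoded on the X chromosome, by 0.79 ± 0.17 (adjusted p = 0.00372) and Rps3a1 by 0.90 ± 0.19 (adjusted p = 0.0034). Rps28 was the only gene called whose groups overlapped: APOE3 microbead 3 was at 147 CPM, below the 151 CPM of APOE3 sham 1 (log2 fold change 1.09 ± 0.25, adjusted p = 0.00656). It was singled out after its values were seen. Rps6, the substrate of S6 kinase, was at 215, 139, 72.1 and 144 CPM in sham and 241, 362 and 291 CPM in microbead libraries, and with a spread of that size its log2 fold change of 1.07 ± 0.33 did not pass the test (adjusted p = 0.0797). Rps27a, made as a fusion with ubiquitin, had a log2 fold change of 0.68 ± 0.27 (adjusted p = 0.182), and its microbead libraries at 314, 294 and 155 CPM overlapped with sham at 92.2 to 194 CPM.

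The stalk is the lateral arm of the large subunit on which elongation factors dock. Rplp0, which anchors it, was at 263, 251, 286 and 287 CPM in APOE3 sham and 604, 571 and 431 CPM in APOE3 microbead. The sham libraries of Rplp0 were close together, and the gene rose by 0.98 ± 0.20 on the log2 scale (SE; adjusted p = 0.00223). Its partner Rplp2 was at 96.4, 105, 114 and 133 CPM in sham and 262, 222 and 190 CPM in microbead libraries (log2 fold change 1.00 ± 0.20, adjusted p = 0.00186). Rplp1, the other partner, was at 342, 215, 315 and 287 CPM in sham and 522, 437 and 362 CPM in microbead libraries. Its groups did not overlap either, but its log2 fold change was the smallest of the stalk, at 0.60 ± 0.19, and did not pass the test (adjusted p = 0.0679).

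**Figure D2:**
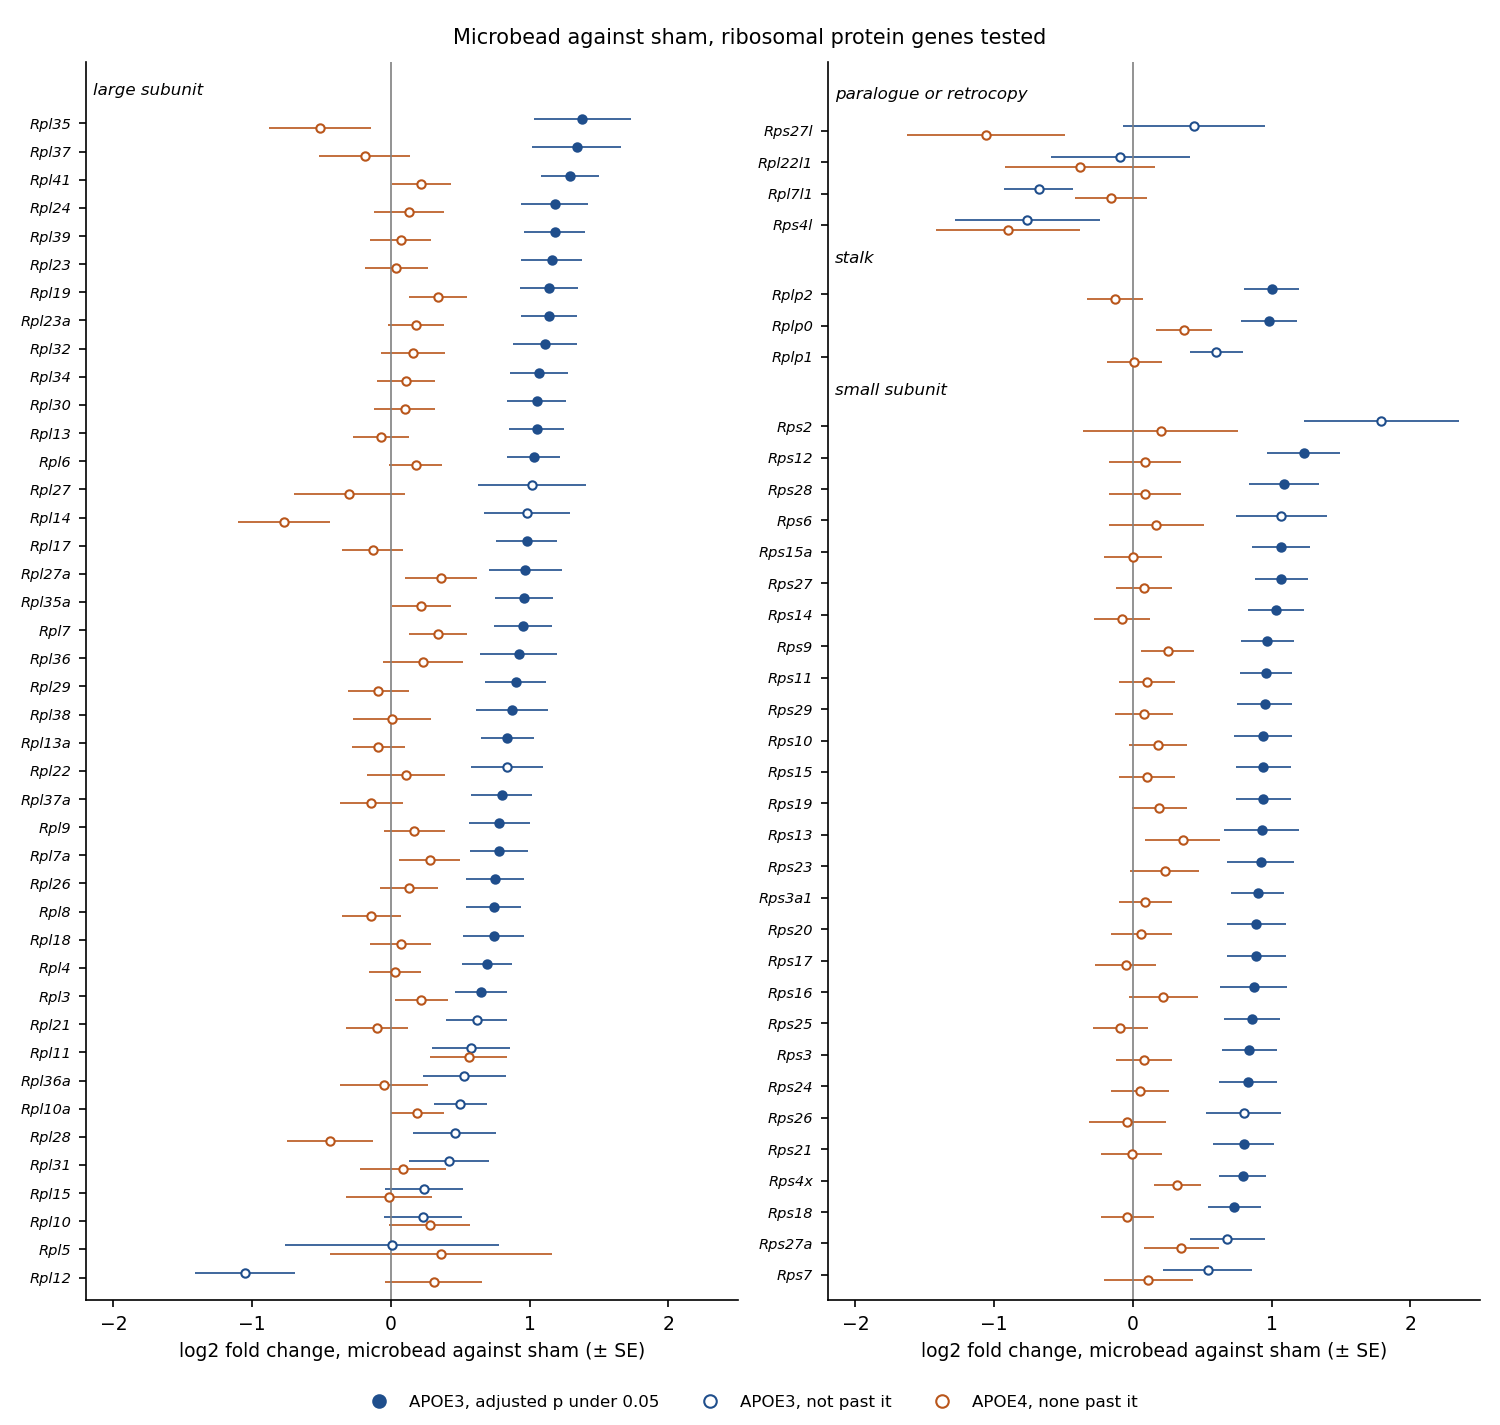
Log2 fold change of microbead against sham (points, bars ± SE) for 77 of the 80 ribosomal protein genes tested, by role. Over all 80, in APOE3 56 genes rose and the median was 0.90; in APOE4, 0 genes passed the test and the median was 0.09.

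In APOE3, 24 of the 80 genes did not pass the test, and most of these had a mean level under 100 CPM. Of 59 genes with a mean of at least 100 CPM over the libraries, 50 rose, with a median log2 fold change of 0.94 and an SD between genes of 0.22. Of 21 genes below 100 CPM, 6 rose, with a median of 0.54 and an SD of 0.66. The 4 genes with a negative log2 fold change were Rpl12, Rpl7l1, Rps4l and Rpl22l1, 3 of them paralogues. Rpl7l1, a homologue of Rpl7 found in the nucleolus, was at 59.4, 97.5, 87.8 and 76.9 CPM in APOE3 sham and 50.5, 51.3 and 49.8 CPM in APOE3 microbead. The groups did not overlap, but its log2 fold change of -0.68 ± 0.25 did not pass the test (adjusted p = 0.142), whereas its parent Rpl7 was called higher. Rps4l, annotated as a transcribed processed pseudogene, was at 10.3 to 28.4 CPM in sham and 7.1 to 13.6 CPM in microbead libraries (log2 fold change -0.76 ± 0.52, adjusted p = 0.575). Rpl22l1 was at 3.74 to 34.4 CPM in sham and 18 to 24.5 CPM in microbead libraries (log2 fold change -0.09 ± 0.50, adjusted p = 0.977), a value that turned positive under several of the settings given in the closing section. Its parent Rpl22, at 33.3 to 56.7 CPM in sham and 69 to 81.2 CPM in microbead libraries, had a log2 fold change of 0.84 ± 0.26 (adjusted p = 0.0603). Rps27l, a paralogue of Rps27 that responds to p53, had a log2 fold change of 0.44 ± 0.51 (adjusted p = 0.801). No test of the difference between paralogues and parents was made.

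The remaining genes with the largest p were Rpl31, Rpl15, Rpl10 and Rpl5. Rpl31 had a log2 fold change of 0.42 ± 0.29 (adjusted p = 0.585) and Rpl15 of 0.24 ± 0.28 (adjusted p = 0.811). Rpl10, which joins the large subunit late in its maturation, was at 152, 131, 146 and 141 CPM in sham and 139, 216 and 146 CPM in microbead libraries, so that APOE3 microbead 2 alone lay above sham (log2 fold change 0.23 ± 0.28, adjusted p = 0.821). Rpl11, which with Rpl5 and the 5S ribosomal RNA binds Mdm2, was at 42.7 to 80 CPM in sham and 85.8 to 108 CPM in microbead libraries (log2 fold change 0.58 ± 0.28, adjusted p = 0.324). Rpl14, at 57.1 to 118 CPM in sham and 140.3 to 175 CPM in microbead libraries, had a log2 fold change of 0.98 ± 0.31 (adjusted p = 0.0754). For these genes the p that missed the threshold does not show that they stayed level.

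**Figure D3:**
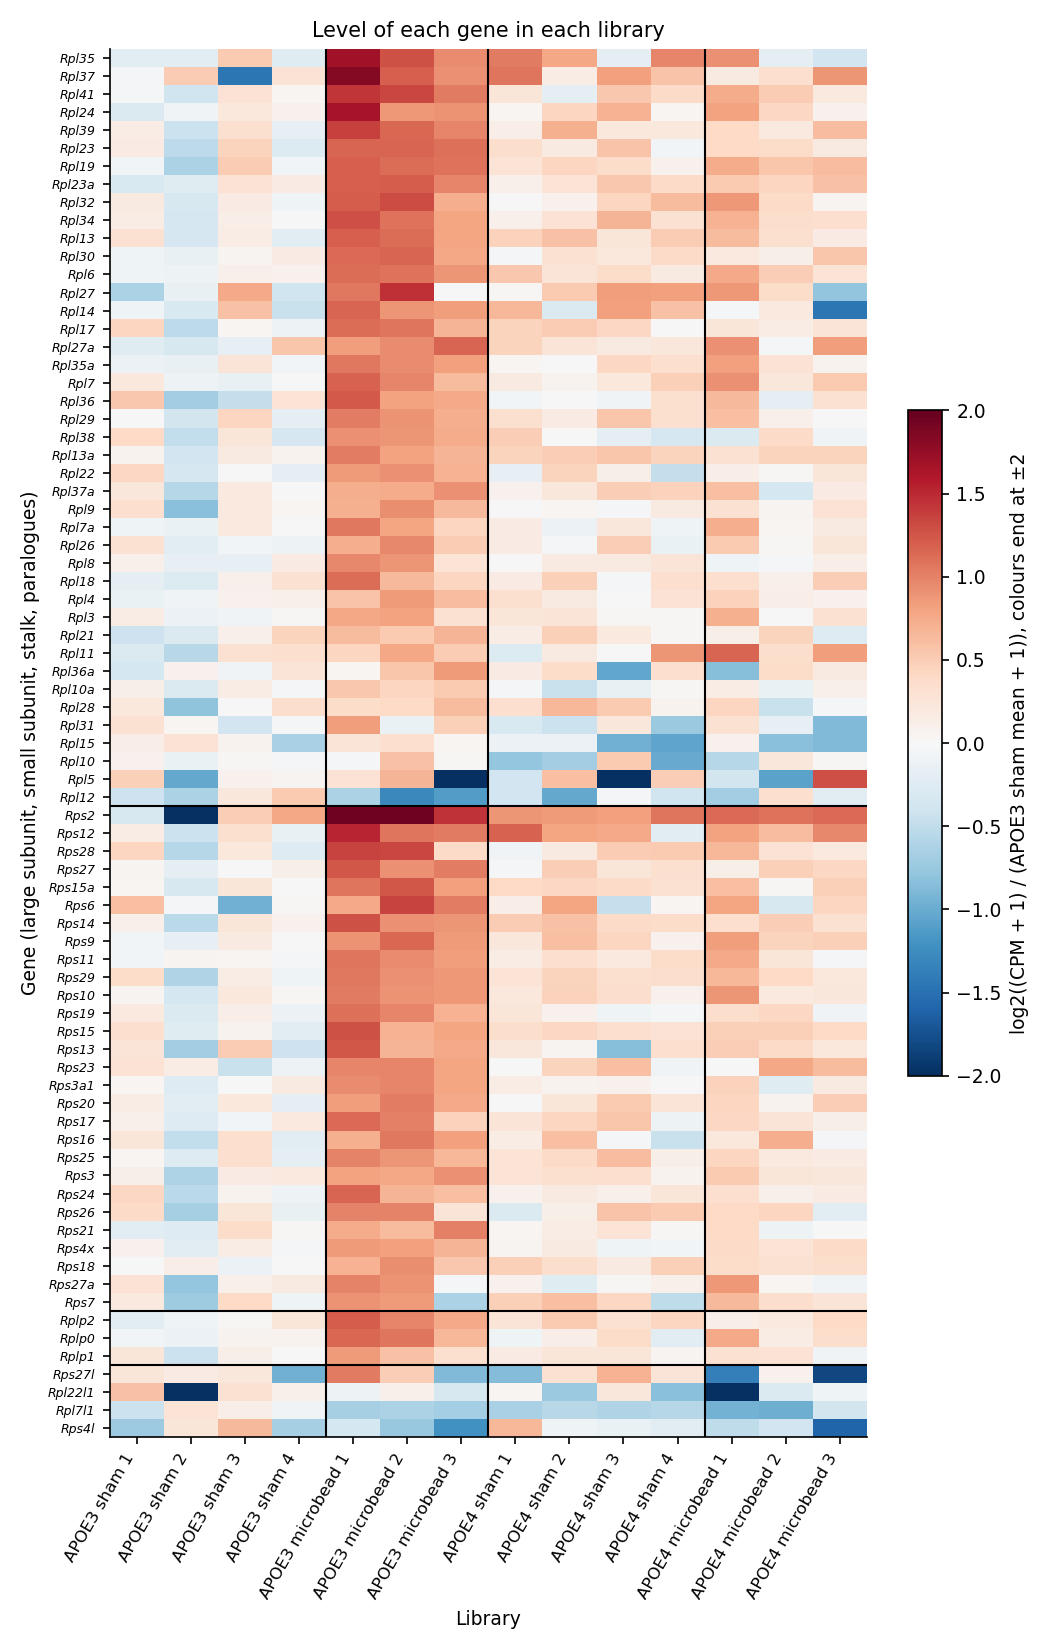
Level of 77 of the 80 genes tested in each library as log2 of (CPM + 1) over (the APOE3 sham mean + 1), with colours ending at ±2. In APOE3 microbead 1, 2 and 3, 75, 76 and 71 of all 80 genes lie above the APOE3 sham mean. The counts are 69, 63 and 61 in APOE4 microbead 1 to 3 and 63, 65, 61 and 58 in APOE4 sham 1 to 4. In APOE3 sham 1 to 4 they are 50, 10, 64 and 39. The median over all genes tested is -0.04 to 0.00 in each library.

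The reads of several ribosomal protein genes were shared with processed pseudogenes of nearly the same sequence. After the data were seen, 86 pseudogenes were found whose most-read transcript has at least 80% of its 31-base words in the transcripts of 1 ribosomal protein gene. They are copies of 49 of the 88 genes, and their reads came to 11.5 to 14.6% of the reads of the 88 genes, depending on the library. For some genes, among them Rpl5, Rpl12 and Rpl27a, the copy held more reads than the gene. Rpl27a was at 42.6 to 79.1 CPM in APOE3 sham by itself and at 130 to 188 CPM with its copy. Gm15500 (chr7:114705217-114706235, minus strand, GRCm38, a transcribed processed pseudogene) shares 988 of its 989 words with Rpl5 and held 3009 reads over all libraries, against 196 for Rpl5 itself. Gm15500 was at 319, 229, 358 and 275 CPM in APOE3 sham, 599, 567 and 475 CPM in APOE3 microbead, 355, 277, 323 and 323 CPM in APOE4 sham and 337, 314 and 297 CPM in APOE4 microbead. The copy thus rose in APOE3, by 0.89 ± 0.19 on the log2 scale (adjusted p = 0.00323), and its value in APOE4 was -0.02 ± 0.19 (adjusted p = 0.998). Rpl5 alone was at 31.4, 10.4, 23.7 and 23.2 CPM in APOE3 sham and 27.2, 36.1 and 2.58 CPM in APOE3 microbead (log2 fold change 0.01 ± 0.77, adjusted p = 1). Gm10275 (chr10:29698746-29699380, minus strand) shares 604 of its 605 words with Rpl12, a protein at the base of the stalk, and held 1436 reads against 311. It was at 182, 146, 149 and 119 CPM in APOE3 sham and 233, 246 and 221 CPM in APOE3 microbead (log2 fold change 0.65 ± 0.20, adjusted p = 0.0584). Rpl12 alone went the other way, at 34.7, 29.7, 54.2 and 67.1 CPM in sham and 29.6, 18.5 and 20.9 CPM in microbead libraries (log2 fold change -1.05 ± 0.36, adjusted p = 0.0979). Of the reads assigned to Rpl12, 6.2% were on its protein-coding transcripts, and of those assigned to Rpl5, 48.9%. The median was 97.4% among the 56 genes called and 88.6% among the genes not called. Of 19 genes tested with under 80% of reads on such transcripts 11 were called, and of 61 with at least 80%, 45.

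Of the 86 copies, 28 had enough reads to be tested, and 5 of them rose in APOE3 and 0 fell (3.54% of all genes were called higher), with a median log2 fold change of 1.02. Besides Gm15500, these were Gm9794, a copy of Rpl23 (1.43 ± 0.22, adjusted p = 0.000137), Rpl28-ps1 (1.34 ± 0.27, adjusted p = 0.00223), Gm7536, a copy of Rpl27a (1.01 ± 0.21, adjusted p = 0.0034), and Rps23-ps1 (0.83 ± 0.20, adjusted p = 0.0118). When the reads of each copy were added to its gene, 68 of the 80 genes rose in APOE3 and 0 fell, with 5.54% of all genes called. The 12 newly called included Rpl5, Rpl11, Rpl14, Rpl21, Rpl27, Rpl28, Rps2, Rps6, Rps7, Rps26 and Rps27a, and 0 calls were lost. Rpl5 with its copy was at 350, 240, 382 and 298 CPM in APOE3 sham and 626, 603 and 478 CPM in APOE3 microbead (log2 fold change 0.84 ± 0.18, adjusted p = 0.00427). Rpl12 with its copies was at 217, 176, 203 and 186 CPM in sham and 263, 266 and 241 CPM in microbead libraries, so that its sign turned (log2 fold change 0.40 ± 0.18, adjusted p = 0.288). Rps6 with its copy was called, at 0.87 ± 0.20 (adjusted p = 0.0055). Rpl31 and Rpl15 with their copies were at 0.78 ± 0.26 (adjusted p = 0.0725) and 0.67 ± 0.23 (adjusted p = 0.0952), and were not called. Rpl10 with its copies stayed at 0.23 ± 0.29 (adjusted p = 0.823). The SD of the log2 fold changes between genes was 0.35 with the copies and 0.43 without them, and the median stayed at 0.90. Rpl7l1 and Rps4l were the only genes left with a negative value. Whether the reads came from the gene or from the copy was not tested.

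**Figure D4:**
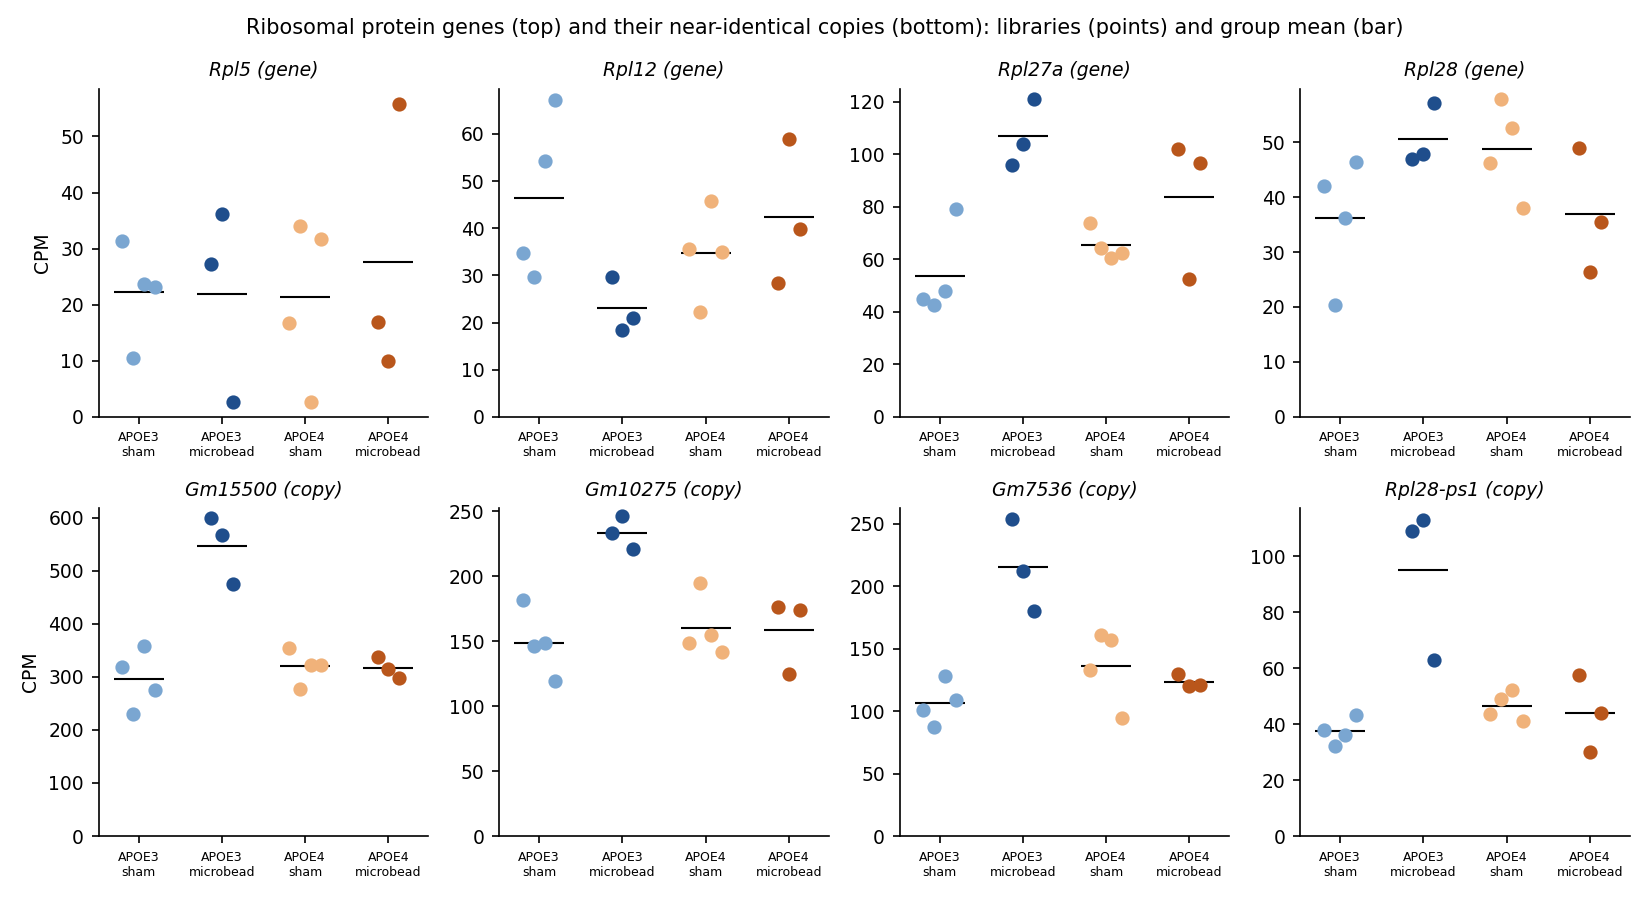
Levels (CPM, axes from 0) of ribosomal protein genes (top) and of their near-identical pseudogene copies (bottom) in each library (points), with the group mean (bar). Gm15500 lies at 475 to 599 CPM in the APOE3 microbead libraries and at 229 to 358 CPM in APOE3 sham, whereas Rpl5 lies at 2.58 to 36.1 CPM in the same groups.

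Genes rose both with and without the promoter motifs. Of 24 genes tested that have CCGGAAG in the promoter, 16 rose, with a median log2 fold change of 0.92, and of 35 without it 24 rose, with a median of 0.84. Of 29 with a pyrimidine run within 5 bases of the start 19 rose (median 0.92), and of 30 without it 21 rose (median 0.86). A missing run says only that these letters are not at the annotated start. Genes also rose at low and at high shares of sequence held in common with other genes: 41 of 60 genes with under 80% of their 31-base words in other genes rose (median 0.89), and 15 of 20 with at least 80% (median 0.91).

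The rise in APOE3 stood beside changes in the markers of microglia and monocytes in the same libraries. Of the 12 microglial markers, 8 fell and 1 rose in APOE3 microbead (5.2% of all genes were called), with a median log2 fold change of -0.93. The purinergic receptor P2ry12 was at 788 to 1062.7 CPM in APOE3 sham and at 167, 211 and 382 CPM in APOE3 microbead, and fell by 1.82 ± 0.22 on the log2 scale (SE; adjusted p = 5.59e-06). In APOE4, 0 of the 12 fell and Itgam rose (1.01 ± 0.22, adjusted p = 0.0458), where 0.223% of all genes were called. At that share a list of 12 genes could be without a fall. The summed monocyte markers were above the sham range in all 3 APOE3 microbead libraries. Without Fn1 the sum was 231 and 394 CPM in APOE3 microbead 1 and 2, but in APOE3 microbead 3 it was 50.4 CPM, within the 33.6 to 72.8 CPM of APOE3 sham. Fibronectin (Fn1), which was called higher (4.77 ± 0.88, adjusted p = 0.00982), had the highest level of that list there, at 1318, 335 and 235 CPM in APOE3 microbead 1, 2 and 3 and 14 to 35.7 CPM in APOE3 sham, and Ccr2 was at 83.8, 115 and 16.3 CPM there and 4.3 to 18.4 CPM in sham. Ly6c2, the defining marker that the sort selected against, was at 1.78 to 2.26 CPM in APOE3 microbead and 0 to 5.73 CPM in APOE3 sham. The APOE3 microbead 3 library had the lowest monocyte sum of the group, 286 CPM, and the median ribosomal protein gene stood 0.74 above the APOE3 sham mean in it on the log2 scale, against 1.02 and 0.91 in the other libraries of the group. In APOE4 microbead 1, 2 and 3 the monocyte sum was 56.9, 205 and 88.1 CPM, and the same median was 0.43, 0.24 and 0.2. With the log2 monocyte sum as a covariate, the median log2 fold change in APOE3 was 0.78 and 0 of 80 genes were called, where 0.0131% of all genes were called. With the sum taken without Fn1, a setting chosen after the data were seen, the median was 0.82 and 3 genes were called (0.539% of all genes). Without APOE3 microbead 1 and 2, which left only APOE3 microbead 3 in its group, the median was 0.74. Left out by themselves, APOE3 microbead 2 left 37 calls (3.01% of all genes) and APOE3 sham 2 left 40 (3.63% of all genes), and without both 23 genes were called (2.31% of all genes). The sum of 6 B cell markers was lower in the same libraries, at 106 to 144 CPM against 286 to 316 CPM in APOE3 sham. Of the 3 of them tested, only Ighm was called (-1.35 ± 0.21, adjusted p = 0.000163), where 5.2% of all genes were called, and Cd79b and Ms4a1 were not. Erythrocyte markers did not exceed 5.15 CPM in any library. The part of these cells, and of the shift in microglial markers, in the rise was not tested.

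Another scaling took most of the calls away and left the sign of the median as it was. With library totals, satellite genes included, in place of TMM, 6 of the 80 genes rose and 0 fell in APOE3 (1.96% of all genes called). On the authors' TPM scale the summed level of the 88 genes was 4819, 3648, 5478 and 9836 TPM in APOE3 sham and 7361, 18339 and 8672 TPM in APOE3 microbead, so the groups overlapped. With limma on log2(TPM + 1), 0 genes were called, where 0.368% of all genes were called.

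In APOE4 retinas, no ribosomal protein gene passed the test after microbeads. Of the 80 genes, 0 were called (edgeR; 0.223% of all genes were called), and DESeq2 called 0 as well (0.807% of all genes). At an unadjusted p under 0.05, 1 gene was higher (3.65% of all genes) and 1 lower (2.84% of all genes). The median log2 fold change was 0.09, with quartiles of -0.05 and 0.21, against 0.00 over all genes; 55 were positive and 25 negative, and the median turned to -0.15 with library totals and -0.27 on the TPM scale. Groups did not overlap for 4 genes that were higher (5.05% of all genes), among them Rps4x, Rpl19 and Rps2, and for 1 that was lower (4.01% of all genes), Rps4l. Rpl14 was at 124, 63.4, 139 and 117 CPM in sham and 76.1, 89.7 and 28.1 CPM in microbead libraries, with APOE4 microbead 3 the lowest of all 14 libraries (log2 fold change -0.77 ± 0.33, adjusted p = 0.689). Rpl11 had a log2 fold change of 0.56 ± 0.28 (adjusted p = 0.774) and Rplp0 of 0.37 ± 0.20 (adjusted p = 0.822). Rpl41 was at 242, 180.4, 297 and 266 CPM in APOE4 sham and 341, 289 and 233 CPM in APOE4 microbead, which overlapped (log2 fold change 0.22 ± 0.21, adjusted p = 0.939), and Rps27 at 135 to 193 and 148 to 191 CPM (0.08 ± 0.20, adjusted p = 0.992).

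The difference between the 2 genotypes in the response to microbeads was tested for each gene as an interaction, APOE4 minus APOE3. Of the 80 genes, 0 were called (edgeR; 0.092% of all genes were called). At an unadjusted p under 0.05, 53 were lower (4.65% of all genes) and 1, Rpl12, was higher (3.54% of all genes). DESeq2 called 16 of them lower and 0 higher, over the 1117 genes to which it gave an adjusted p, 5.19% of which were called. The median of the 80 interaction values was -0.79, with quartiles of -0.96 and -0.61, against 0.01 over all genes, and 76 of the 80 were negative. Rplp2 had the smallest p: it was at 134, 161, 139 and 150.4 CPM in APOE4 sham and 123, 128 and 148 CPM in APOE4 microbead, against 96.4 to 133 and 190 to 262 CPM in the same treatments of APOE3, and its interaction was -1.13 ± 0.28 (SE; adjusted p = 0.16). Rpl13 followed at -1.12 ± 0.29 (adjusted p = 0.17), then Rps14, a protein of the small subunit's platform, at -1.11 ± 0.28 (adjusted p = 0.173) and Rpl14 at -1.75 ± 0.46 (adjusted p = 0.208). For single genes the difference between genotypes thus did not pass edgeR's adjusted test, whereas DESeq2 called 16 of them lower. Its sign was the same for nearly all of the 80 genes.

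The genotypes were also compared within each treatment; these comparisons share libraries with those above and with each other, so they are given side by side and not as separate support. After sham injection, 0 of the 80 genes were called between APOE4 and APOE3 by edgeR (0.0131% of all genes) and 0 by DESeq2 (0.0131% of all genes). At an unadjusted p under 0.05, 7 were higher in APOE4 (2.44% of all genes) and 1 lower (1.96% of all genes). The median log2 fold change was 0.26 against 0.00 over all genes, 71 of 80 were positive, and groups did not overlap for 8 that were higher (2.22% of all genes) and 1 that was lower (1.38% of all genes). Rps12, a protein of the small subunit's beak, was at 80.6, 53.3, 90.7 and 65.1 CPM in APOE3 sham and 165, 126, 123 and 61.5 CPM in APOE4 sham, where APOE4 sham 4 lay with the APOE3 libraries (log2 fold change 0.72 ± 0.25, adjusted p = 0.962). Rpl13a was at 173, 126, 187 and 174 CPM in APOE3 sham and 226, 233, 244 and 224 CPM in APOE4 sham, with no overlap (0.49 ± 0.18, adjusted p = 0.962). Rps14 had a log2 fold change of 0.46 ± 0.19 and Rpl7l1 of -0.59 ± 0.23 (both adjusted p = 0.962).

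After microbeads, 0 of the 80 genes were called between APOE4 and APOE3 by edgeR (0.578% of all genes), and DESeq2 called 7 lower in APOE4 over the 2150 genes to which it gave an adjusted p (3.44% of which were called). At an unadjusted p under 0.05, 51 were lower in APOE4 (5.15% of all genes) and 1 was higher (4.65% of all genes). Groups did not overlap for 51 genes that were lower in APOE4 (7.16% of all genes) and for 0 that were higher (7.44% of all genes). The median log2 fold change was -0.55 against 0.00 over all genes. Rps3a1, a small-subunit protein near the mRNA exit, was at 407, 418 and 368 CPM in APOE3 microbead and 291, 179 and 240.1 CPM in APOE4 microbead (log2 fold change -0.75 ± 0.21, adjusted p = 0.109). Rpl41 was at 554, 519 and 421 CPM against 341, 289 and 233 CPM (-0.79 ± 0.22, adjusted p = 0.118). Rplp2 at -0.75 ± 0.21 and Rpl23, which faces the small subunit, at -0.84 ± 0.24 had an adjusted p of 0.118 each, also without overlap. In all 4 the APOE4 microbead libraries were lower, but with 3 libraries a group the differences did not pass edgeR's adjusted test. Each of the 4 passed under 1 of the 36 alternatives of the closing section.

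Genes that work with these proteins were counted in lists chosen with earlier results of these data known. Of 5 ribosomal proteins or partners that fall outside the symbol form and were tested, 4 rose in APOE3, where 3.54% of all genes were called higher: Rpsa at 1.22 ± 0.22 (adjusted p = 0.000916), Fau at 0.88 ± 0.19 (adjusted p = 0.0034), the scaffold Rack1 at 0.72 ± 0.20 (adjusted p = 0.0329) and Rpl36al at 1.00 ± 0.30 (adjusted p = 0.0488). Rpsa was at 210.4, 112, 212 and 230.3 CPM in APOE3 sham and 562, 451 and 328 CPM in APOE3 microbead, with no overlap. Of 25 other mRNAs with a TOP start, 8 rose and 0 fell, with a median of 0.51 against -0.02 over all genes. They were the elongation factors Eef1a1, Eef1b2 and Eef2, the initiation factor Eif3f, the poly(A)-binding protein Pabpc1, Naca, Tpt1 and the intermediate filament Vim. Eef1b2 was at 115, 73.5, 89.4 and 96.1 CPM in sham and 213, 219 and 155 CPM in microbead libraries (1.07 ± 0.21, adjusted p = 0.00168), and Eef1a1 at 930 to 1279 and 1670.5 to 2249 CPM (0.79 ± 0.17, adjusted p = 0.0044). Tpt1 rose by 1.01 ± 0.20 (adjusted p = 0.00205). Vim was at 0 to 4.80 CPM in sham and 142, 157 and 49.7 CPM in microbead libraries (5.29 ± 0.71, adjusted p = 0.000264).

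Of the lists for making and controlling ribosomes, 1 gene passed the test in APOE3, where 5.2% of all genes were called. At that share a list of 13 or 16 genes could be without a call. Of 13 genes of RNA polymerase I and rDNA transcription, 0 were called in APOE3, with a median of -0.12; Taf1c had the smallest p, at -1.66 ± 0.85 (adjusted p = 0.377). Of 76 genes of ribosome assembly and rRNA processing, 0 were called, with a median of -0.08; Nhp2, of the box H/ACA particles, was at 1.16 ± 0.43 (adjusted p = 0.136) and Las1l, an rRNA-processing factor, at -1.42 ± 0.55 (adjusted p = 0.162). Of 33 genes of mTORC1 and its control of TOP mRNAs, 1 fell, the mTORC1 inhibitor Sesn1 (-0.92 ± 0.27, adjusted p = 0.0456), with a median of -0.03. Sesn1 was at 69.6 to 129.9 CPM in APOE3 sham and 33.9 to 56.8 CPM in APOE3 microbead, with no overlap. Deptor, another inhibitor of mTORC1, had 1.32 ± 0.45 (adjusted p = 0.0974). Of 16 transcription factors named for ribosomal protein promoters, 0 were called, with a median of -0.03, and Yy1 was at -1.32 ± 0.48 (adjusted p = 0.129). Of 51 mitochondrial ribosomal protein genes, 0 were called, with a median of 0.09; Mrpl33 was at 1.19 ± 0.43 (adjusted p = 0.127). A p that missed the threshold does not show that they stayed level. In APOE4 after microbeads 0 genes of any of these lists were called, where 0.223% of all genes were called. At that share, lists of these sizes could be without a call.

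**Figure D5:**
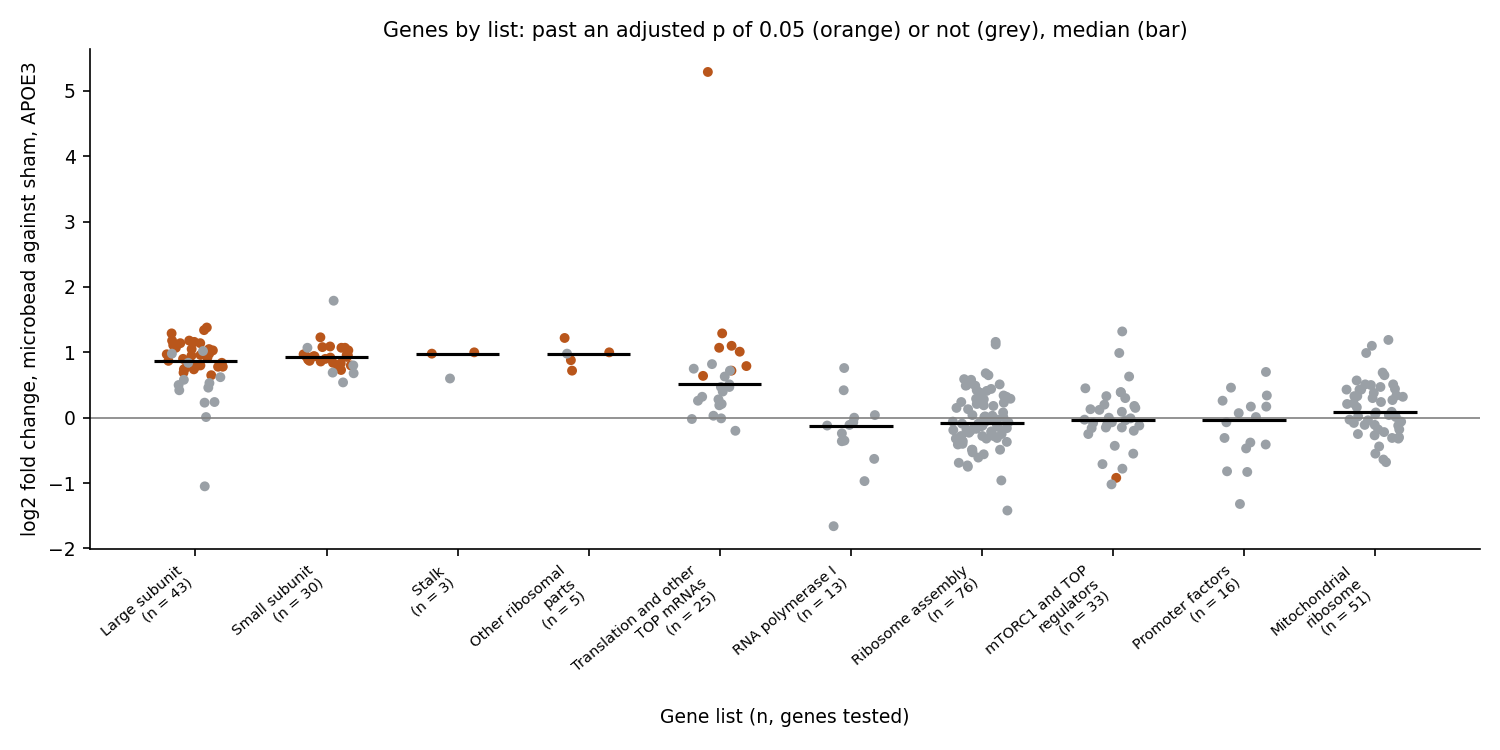
Log2 fold change of microbead against sham in APOE3 for each gene tested (points; orange, adjusted p under 0.05; grey, not), by list, with the list's median (bar). The ribosomal proteins inside and outside the symbol form have medians of 0.90 and 0.98, the other TOP mRNAs 0.51, and the polymerase I, assembly, mTORC1, transcription factor and mitochondrial lists lie between -0.12 and 0.09.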

How the data were processed

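RNA-seq libraries of 14 samples were used. Salmon 1.4.0, R 4.0.3, DESeq2 1.30.1 and mm10 are listed in the submitters' processing notes; the strand setting is not given in the sources used here. The authors made estimated counts per transcript for each sample with Salmon, per the submitters' processing notes, and deposited them with a series table of TPM per gene. Each sample's TPM matched its own column of that table within 1% for 99.2 to 99.4% of values. Estimated counts were summed per gene (GENCODE, GRCm38) for 116023 of 116945 transcripts and rounded. Genes were filtered (filterByExpr, minimum count 10, minimum total 15), scaled with TMM and fitted in edgeR 4.0.16 (R 4.3.3) with 4 group means over all 14 libraries, robust and two-sided; the script was tested on simulated data. P-values were adjusted by Benjamini-Hochberg over 7609 genes. Alternatives with DESeq2 1.42.0 and limma 3.58.1 are in the closing section. The members and gene lists were chosen with earlier results of these data known. Named genes are the 8 with the smallest adjusted p in APOE3, those with negative values or the 6 largest p there, the 4 smallest p in each other comparison, the 3 highest and 3 lowest by TPM, the stalk proteins, paralogues with their parents and 10 well-studied members; of other lists, up to 4 by p. Results of some genes are not reported here.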

Additional observations from a re-analysis of the deposited data

Results flagged for a closer look

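Each group of 4 libraries was checked for a library far from the others (gap to the nearest over the group's range above Dixon's 95% critical value), for the genes named above and the summed levels. Of 84 such checks 7 stood out, and chance gives about 1 in 20. Rpl39 was at 152 CPM in APOE4 sham 2, with the nearest library at 107 CPM. Rpl10 was at 206 CPM in APOE4 sham 3, with the nearest at 87.8 CPM, and APOE4 sham was the group in which it spread most. The retrocopy Rps4l was at 28.7 CPM in APOE4 sham 1 against 16.6 CPM in the nearest, and Rps27l at 8.4 CPM in APOE3 sham 4 against 19.3 CPM. The summed large-subunit genes were at 6368 CPM in APOE4 sham 3, with the nearest at 6101 CPM. APOE3 sham 2 was low in both the summed stalk genes, at 571.8 CPM against 701.1 CPM, and the share of all ribosomal protein genes among reads outside the satellite genes, at 1.68% against 2.19%.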

How the results depend on the processing

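Of 36 alternatives tried, 5 were chosen after the data were seen: TPM without the satellite genes, the satellite percentage or the monocyte sum without Fn1 as a covariate, leaving out APOE3 sham 2 with APOE3 microbead 2, and adding near-identical pseudogenes. The median log2 fold change of the ribosomal protein genes in APOE3 was positive in all 36. The causes of the changes below were not tested. The 56 calls in APOE3 became 6 with library totals, 34 with transcript-length offsets and 26 with only the 7 libraries compared. There were 9 with TPM without satellite genes, 3 with the monocyte covariate without Fn1 and 23 without APOE3 sham 2 and APOE3 microbead 2. With the monocyte covariate, and on TPM with 1, 0.1 or 10 added or unfiltered, there were 0. Without APOE3 microbead 1 and 2, which left only APOE3 microbead 3 in its group, the median was 0.74. Leaving out 1 library gave 37 to 54 calls and a median of 0.79 to 0.97. No pairing of libraries by replicate number was seen (0 of 19 same-numbered pairs correlated above 0.1, and 2 of 14 libraries correlated best with their own number). With so few libraries a group, this check could miss a weak pairing. A replicate block gave 47 calls. The median in APOE4 was -0.15 with library totals and -0.27, -0.27, -0.25 and -0.26 on TPM with 1, 0.1 and 10 added and unfiltered; leaving out 1 library gave -0.01 to 0.13. With library totals the median over all genes shifted by -0.23 in APOE4, -0.21 in the interaction and 0.16 between sham groups. The interaction count of 0 became 16 with DESeq2, 1 without the filter and 1 with the satellite covariate, and its median of -0.79 became -1.0 with library totals, -0.62 without APOE3 microbead 1 and 2, and -1.19, -1.2, -1.08 and -1.18 on the TPM scales. Between sham groups the median of 0.26 became 0.43 with library totals and 0.5, 0.53, 0.44 and 0.48 on TPM. Between microbead groups the count of 0 became 7 with DESeq2 and 1 without the filter, leaving out 1 library gave 0 to 1 (1 without APOE3 microbead 3), and the median of -0.55 became -0.41 without APOE3 microbead 1 and 2 and -0.68 and -0.69 on TPM with 1 and 0.1 added. Signs turned for genes near 0. In APOE3 Rpl5 was -0.04 with DESeq2, -0.42 with limma-voom, 0 with RLE factors, -0.3 with length offsets, -0.01 with only the libraries compared, -3.49 without APOE3 microbead 1 and 2, -1.03 and -1.8 with the monocyte covariates, -0.53, -0.69, -0.16 and -0.53 on TPM, -0.83 on TPM without satellite genes, -0.08 with the satellite covariate, -0.94 without APOE3 sham 2 and APOE3 microbead 2, and -0.71 to 0.52 leaving out 1 library. Rpl22l1 was 0.25 with limma-voom, 0.01 with length offsets, 0.52, 0.74, 0.12 and 0.52 on TPM, 0.59 on TPM without satellite genes, 0.11 with pseudogenes added and -0.44 to 0.17 leaving out 1 library. Rps27l was -0.9 without APOE3 microbead 1 and 2 and -2.32 and -0.54 with the monocyte covariates. Rpl10 was -0.05 and -0.01 with the monocyte covariates, -0.02 on TPM without satellite genes, -0.06 without APOE3 sham 2 and APOE3 microbead 2, and -0.01 to 0.35 leaving out 1 library. Rpl15 was -0.13 with the covariate without Fn1, Rps27a -0.04 without APOE3 microbead 1 and 2, Rpl12 0.4 with pseudogenes added, and Rpl11 in APOE4 -0.08, -0.08, -0.06 and -0.08 on TPM. With 451480 to 727901 reads a library and 4796 to 17621 on these genes, genes such as Rpl5 and Rps4l rest on few reads, and small changes in them were not detectable at this depth.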
